A study of Mus musculus with 6 samples.

Results

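The genes described here are 35 proliferation and cell cycle genes, taken by symbol from a fixed list and found by Ensembl identifier among the 56980 rows of a count table of mouse lung tumours. All 35 passed the filter on low counts, after which 17901 genes were tested. By role they fall into 6 regulators of G1 and of entry into S phase, 10 genes of S phase and DNA replication and 19 genes of G2 and mitosis. Messenger RNA was sequenced from 3 tumour samples labelled Keap1 knockout and 3 tumour samples labelled control, all of them QKO lung tumours of small cell lung cancer collected about 4 months after virus was given. The tumours followed an in vivo screen of candidate tumour suppressors, and the comparison asked how loss of Keap1, through which the cell destroys the NRF2 transcription factor, alters gene expression. The labels neither spell out QKO, so the alleles shared by both groups are not named here, nor say how Keap1 was inactivated or whether each sample is a different animal. The p-values therefore measure the spread between these samples.

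The cell cycle genes belong to successive waves of transcription. Cyclin D with CDK4 or CDK6, and then cyclin E with CDK2, free the E2F factors from the retinoblastoma family of pocket proteins, and E2F switches on the genes of DNA replication. Genes of G2 and mitosis are held down in resting cells by the DREAM complex, in which a pocket protein and E2F4 join the MuvB core, and are switched on later by MuvB with B-MYB and FOXM1. Small cell lung cancer is known for loss of RB1 and for a high rate of division.

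Reads counted on genes ranged from 21801647 to 23759892 in the knockouts and from 18731515 to 20065069 in the controls, and the share on mitochondrial genes was 0.981% to 1.22% in knockouts and 1.15% to 1.41% in controls. Keap1 (ENSMUSG00000003308) stood at 67.5, 93.0 and 79.9 CPM (reads scaled to a common library size by TMM) in knockouts 1 to 3 and at 78.4, 74.5 and 58.7 CPM in controls 1 to 3 (log2 fold change 0.18 ± 0.20 SE, edgeR adjusted p 0.564), so its level does not check the labels, and disruption of a gene need not lower its transcript. Xist, the RNA of the inactive X chromosome, stood at 0.280, 1291 and 1429 CPM in knockouts 1 to 3. In controls 1 to 3 it stood at 2.33, 1497 and 1.54 CPM, so the groups were not balanced in it, and its part was not tested. The control libraries stood apart from each other. Over the 9 fibroblast markers the summed level was 412 to 1157 CPM in knockouts and 528, 34753 and 5872 CPM in controls 1 to 3. Col1a1 and Col1a2 held 20424 and 12074 CPM of the sum in control 2. Among the controls 6 of the 9 were highest in control 2 and 3 in control 3 (Col3a1, Postn and Dcn). Over the 6 squamous and basal markers the summed level was 1.32 to 77.6 CPM in knockouts and 6879, 9.02 and 2.99 CPM in controls 1 to 3. Over the 10 neuroendocrine markers, which define most small cell lung cancers, it was 54.5 to 214 CPM in knockouts and 115, 73.3 and 5296 CPM in controls 1 to 3. Of these 10 markers 5 were lower in every knockout than in every control, and 0 were higher. Chga, a gene of neuroendocrine secretory granules and 1 of the 5, stood at 0 to 0.366 CPM in knockouts. In controls 1 to 3 Chga stood at 7.92, 0.495 and 948 CPM, so control 2 was near 0 as well. Uchl1 overlapped, at 47.9, 16.6 and 28.3 CPM in knockouts 1 to 3 and 14.6, 18.6 and 422 CPM in controls 1 to 3. Ncam1 and Calca overlapped too. Summed leukocyte markers ran from 499 to 1097 CPM in knockouts and from 164 to 1039 CPM in controls. Lyz2 alone held 397 to 1004 CPM of this sum in knockouts and 90.4 to 599 CPM in controls. Of the 12 leukocyte markers 3 (Ptprc, Adgre1 and Csf1r) were lower in every knockout than in every control, and 0 were higher. Over all genes tested 19.1% were lower in every knockout. Endothelial markers summed to 183 to 272 CPM in knockouts and 174 to 523 CPM in controls. Normal lung epithelial markers summed to 3206 to 7841 CPM in knockouts and 285 to 2699 CPM in controls. Scgb1a1 alone held 1574 to 5331 CPM of this sum in knockouts and 119 to 1355 CPM in controls. Of these 8 markers 3 were higher in every knockout than in every control and 1, Foxj1, was lower, against 21.5% and 19.1% of all genes. The others overlapped. The part of these cell types in the results that follow was not tested, and in bulk samples fewer cells of a type and less RNA per cell cannot be told apart.

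The median log2 fold change, knockout over control, was 0.49 over the replication genes, 0.39 over the mitosis genes and -0.46 over the G1 genes, against -0.085 over all genes tested, and 1 of the 35 genes passed the test. Ube2c rose and none of the 35 fell in the quasi-likelihood test of edgeR, with a threshold of 0.05 on the adjusted p. Of all 17901 genes, 4.31% were called in this test, 2.42% higher and 1.89% lower, so 1 of 35 is near the background. Without adjustment 11 of 35 had a p below 0.05, all with positive log2 fold changes. Over all genes 30.7% had such a p in either direction. The share of all genes with such a p and a positive log2 fold change was not computed. The groups did not overlap in 13 of 35, always with the knockouts above, and in none were all knockouts below. Over all genes 40.7% did not overlap, 21.5% with the knockouts above and 19.1% with them below. DESeq2 called 10 members higher and none lower, where it called 11.5% of all genes higher and 14.4% lower. Limma voom called 3 higher and none lower, where it called 3.71% of all genes higher and 2.25% lower. The authors' deposited table lists 5 higher (Ube2c, Mcm6, Cdc20, Mcm7 and Tk1) and none lower, against 7.1% of its 22441 genes higher and 10.7% lower. In the edgeR test the call of Ube2c ended without control 1 or control 2 and without knockout 1, 2 or 3. Of all genes tested, 735 and 269 were still called without control 1 and control 2. Without knockouts 1 to 3 in turn 2, 0 and 0 were, so nearly every call of the series ended there. Without control 3 there were 8 calls among the members, all higher, when 8.4% of all genes tested were called higher.

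**Figure D1:**
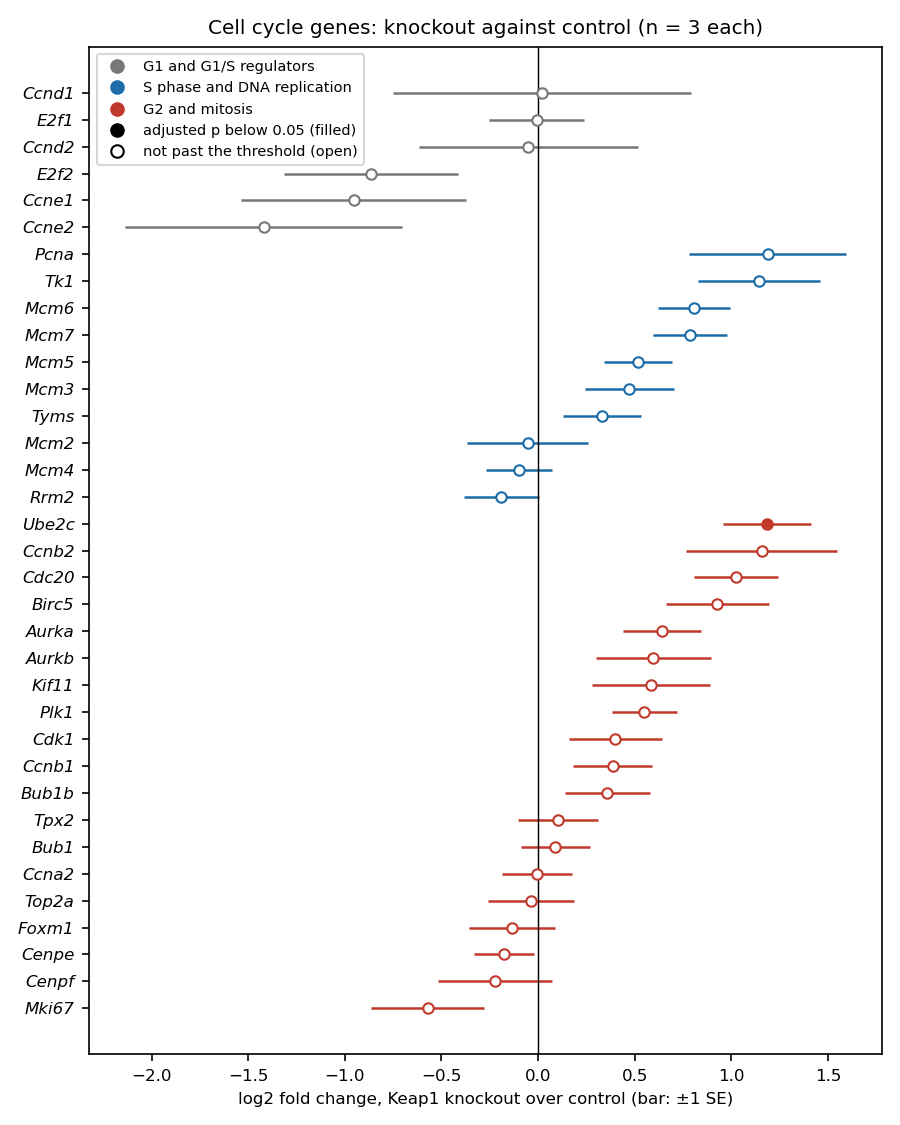
Log2 fold change of each of the 35 genes, Keap1 knockout over control, with bars of 1 standard error (n = 3 each), coloured by role. The filled point, Ube2c at 1.18, is the gene past an adjusted p of 0.05. Replication and mitosis genes spread from -0.57 to 1.19, and the cyclin E genes and E2f2 lie below 0.

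Ube2c, Cdc20, Mcm6 and Mcm7 are the members with the smallest p in the mitosis and replication groups, and their promoters show the sequence elements through which such genes are known to be controlled. The 250 bases before each gene's start are given 5′ to 3′ on the gene's strand, from RefSeq on GRCm38.p6, an earlier build than the mm39 used for alignment. Capitals mark the CCAAT box (CCAAT, bound by NF-Y), the cell cycle genes homology region or CHR (TTTGAA, bound by MuvB) and E2F motifs, whose letters were TTCCCGC in the first form, TTCGCGC in the second form, TTGCCGC in another form and TTGGCGC in the last, searched on both strands, with overlapping matches each counted. Ube2c lies at chr2:164769679-164769928 on the plus strand, Cdc20 at chr4:118437344-118437593, Mcm6 at chr1:128359706-128359955 and Mcm7 at chr5:138171884-138172133, these 3 on the minus strand.
Ube2c: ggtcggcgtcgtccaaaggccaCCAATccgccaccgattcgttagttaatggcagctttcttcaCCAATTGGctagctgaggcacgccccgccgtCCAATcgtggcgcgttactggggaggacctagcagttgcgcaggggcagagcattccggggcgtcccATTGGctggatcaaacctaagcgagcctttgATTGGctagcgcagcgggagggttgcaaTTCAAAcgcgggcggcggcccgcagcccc
Cdc20: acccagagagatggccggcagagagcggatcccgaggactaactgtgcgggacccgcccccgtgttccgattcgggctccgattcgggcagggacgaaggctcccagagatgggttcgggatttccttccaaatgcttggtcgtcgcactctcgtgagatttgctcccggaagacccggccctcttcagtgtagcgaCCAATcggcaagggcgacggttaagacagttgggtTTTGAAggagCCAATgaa
Mcm6: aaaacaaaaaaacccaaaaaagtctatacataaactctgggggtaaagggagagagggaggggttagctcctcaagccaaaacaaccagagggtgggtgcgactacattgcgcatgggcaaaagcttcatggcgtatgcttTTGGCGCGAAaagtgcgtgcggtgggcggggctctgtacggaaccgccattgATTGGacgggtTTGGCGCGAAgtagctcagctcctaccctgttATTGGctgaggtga
Mcm7: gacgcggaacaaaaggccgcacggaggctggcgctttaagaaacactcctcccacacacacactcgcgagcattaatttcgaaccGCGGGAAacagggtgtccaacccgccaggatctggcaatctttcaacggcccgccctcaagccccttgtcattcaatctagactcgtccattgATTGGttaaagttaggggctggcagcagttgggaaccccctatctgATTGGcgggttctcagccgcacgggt
Both mitotic promoters hold CCAAT boxes and a CHR close to the start, from base -29 in Ube2c and from base -18 in Cdc20, with no E2F motif. Both replication promoters hold a pair of CCAAT boxes and no CHR. Mcm6 holds overlapping E2F matches, and Mcm7 holds an E2F motif. Of the 35 members 27 matched the RefSeq table. A CCAAT box was found in 14 of 15 mitosis promoters (93.3%), 7 of 9 replication promoters (77.8%) and 34.5% of 27025 genes. A CHR was found in 7 of 15 mitosis promoters (46.7%), 1 of 9 replication promoters, that of Mcm2 (11.1%), and 16.3% of all genes. An E2F motif was found in 3 of 15 mitosis promoters (20%), 4 of 9 replication promoters (44.4%) and 7.97% of all genes. The antioxidant response element that NRF2 binds (TGACNNNGC) was found in 5 of the 27 member promoters (18.5%), those of Bub1, Ccnb1, Cenpe, Pcna and Rrm2, and in 10.1% of all genes. The 7 mitosis promoters with both a CCAAT box and a CHR (Ccnb2, Cdc20, Cdk1, Kif11, Mki67, Top2a and Ube2c) span members on both sides of 0, with log2 fold changes of 1.18 for Ube2c and -0.57 for Mki67. A match describes these letters and is not a measured site.

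Within the replication group, MCM subunits, the sliding clamp and thymidine kinase were higher in every knockout, while other members were not. Of the 10 genes edgeR called none, with 5 having an unadjusted p under 0.05, limma voom called 1 and DESeq2 4, all higher, against 3.71% and 11.5% of all genes called higher by these tools. Every knockout lay above every control in 6 of them (Mcm6, Mcm7, Tk1, Mcm5, Pcna and Mcm3), against 21.5% of all genes. The median log2 fold change was 0.49, against -0.085 over all genes tested. Pcna encodes the clamp that holds DNA polymerase on its template. It stood at 404, 407 and 499 CPM in knockouts 1 to 3, against 91.1, 220 and 263 CPM in controls 1 to 3. The lowest knockout was above the highest control, and control 1 was the lowest library. This log2 fold change of 1.19 ± 0.41 (SE), the largest of the 35, missed the threshold (edgeR adjusted p 0.120). A processed pseudogene, Pcna-ps2, held 135 to 189 reads in knockouts and 868, 98 and 1160 reads in controls 1 to 3, and reads can be shared with it. With both added, Pcna stood at 411, 413 and 507 CPM in knockouts and 135, 225 and 321 CPM in controls, still without overlap.

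Tk1 encodes the thymidine kinase that salvages thymidine for DNA synthesis. It stood at 242, 242 and 273 CPM in knockouts 1 to 3 and at 117, 156 and 68.6 CPM in controls 1 to 3 (log2 fold change 1.15 ± 0.32 SE, edgeR adjusted p 0.0823). Its knockouts were close together, and control 3 was its lowest library. Tyms, the synthase that makes thymidylate anew, had 118 ± 7.80 CPM in knockouts and 93.5 ± 20.1 CPM in controls (SD, n = 3 each), with overlapping groups. Rrm2, the small subunit of the reductase that makes deoxynucleotides, had 212 ± 30.6 CPM in knockouts and 241 ± 27.9 CPM in controls and overlapped likewise.

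The MCM subunits form 1 ring, the replicative helicase, yet their transcripts did not differ alike. Mcm6 stood at 573, 522 and 575 CPM in knockouts 1 to 3 and at 276, 345 and 333 CPM in controls 1 to 3 (log2 fold change 0.81 ± 0.19 SE, edgeR adjusted p 0.0616). Mcm7 stood at 403, 331 and 389 CPM in knockouts and at 229, 237 and 185 CPM in controls (log2 fold change 0.79 ± 0.19 SE, edgeR adjusted p 0.0676). In both genes the lowest knockout was well above the highest control. Mcm5 had 361 ± 12.9 CPM in knockouts and 253 ± 28.6 CPM in controls, and Mcm3 had 322 ± 20.9 and 232 ± 57.2 CPM, also without overlap. Mcm2 stood at 252, 233 and 245 CPM in knockouts 1 to 3 and at 160, 233 and 363 CPM in controls 1 to 3, so that the controls lay on both sides of the knockouts. Mcm4 had 183 ± 10.3 CPM in knockouts and 196 ± 23.9 CPM in controls, and overlapped. The ratio of Mcm6 to Mcm2 reads within a library, which needs no scaling between libraries, was 2.28, 2.24 and 2.35 in knockouts 1 to 3 and 1.72, 1.48 and 0.918 in controls 1 to 3. The ratio of Mcm5 to Mcm4 was 2.05, 2.02 and 1.86 in knockouts and 1.29, 1.27 and 1.31 in controls, so the balance between subunits differed without overlap for these pairs. The ratio of Mcm7 to Mcm2 overlapped. These pairs were chosen after their values were seen. In Mcm7, 7.25% of the annotated exon bases overlap Ap4m1 and 1.45% overlap Cops6, both on the opposite strand. Ap4m1 overlapped between the groups. Cops6 was higher in every knockout, at 116 to 130 CPM against 78.1 to 101 CPM in controls.

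**Figure D2:**
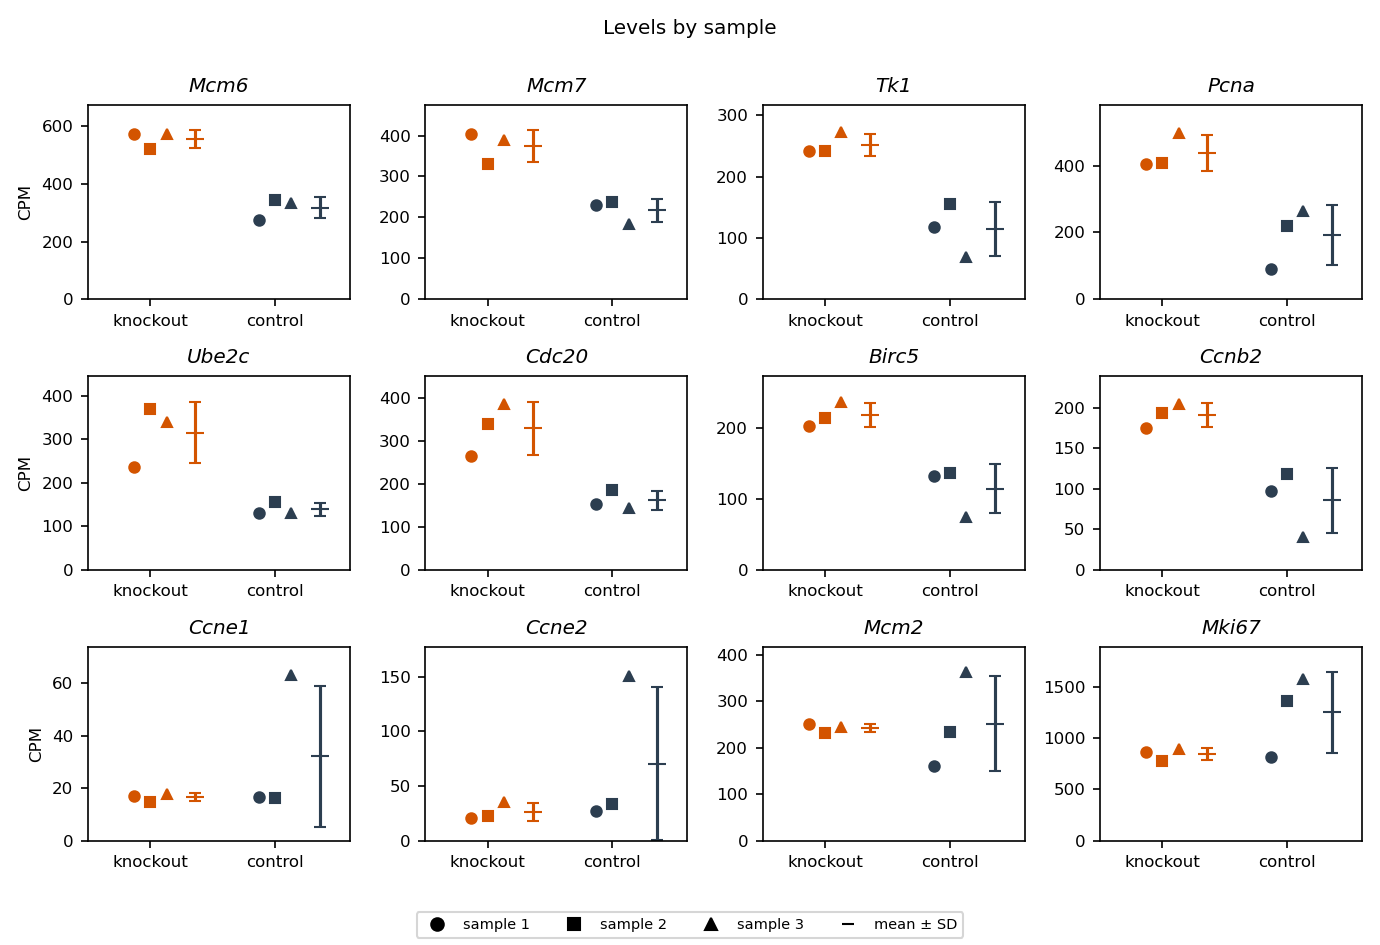
Levels in CPM of 12 cell cycle genes in each sample, knockouts left of controls, with the mean ± SD of 3 samples beside the points. In the 4 replication genes of the top row and the 4 mitosis genes of the middle row the groups do not overlap. In the bottom row they overlap, and control 3 is the highest library.

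Mitotic genes split in a similar way. Of the 19, edgeR called 1 higher (6 with unadjusted p under 0.05), limma voom 2 and DESeq2 6, none of them lower, beside the same 3.71% and 11.5% of all genes higher. In 7 every knockout lay above every control, against 21.5% of all genes, and the median log2 fold change was 0.39. The separated genes were Ube2c, Cdc20, Birc5, Plk1, Aurka, Ccnb2 and Aurkb. Ube2c, the ubiquitin-conjugating enzyme of the anaphase-promoting complex, stood at 237, 369 and 340 CPM in knockouts 1 to 3 and at 130, 156 and 131 CPM in controls 1 to 3. It rose (log2 fold change 1.18 ± 0.23 SE, edgeR adjusted p 0.0478), just inside the threshold, and knockout 1 was the lowest of its group. Cdc20, which activates the same complex at the start of anaphase, stood at 264, 340 and 386 CPM in knockouts and at 154, 186 and 145 CPM in controls. Its log2 fold change of 1.03 ± 0.22 (SE) fell just outside the threshold, at an adjusted p of 0.0551. Without control 3 the adjusted p of Ube2c was 0.035, and leaving out any other library raised it, to at most 0.233. In Ube2c 22.8% of the exon bases overlap Tnnc2 on the opposite strand, a gene with at most 2 reads in any library. In Cdc20 2.84% overlap Elovl1 on the opposite strand. Elovl1 was higher in every knockout, at 128 to 186 CPM against 26.4 to 87.4 CPM in controls.

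Birc5, or survivin, a subunit of the chromosomal passenger complex with Aurora B, stood at 203, 214 and 236 CPM in knockouts 1 to 3 and at 132, 136 and 74.6 CPM in controls 1 to 3. Ccnb2, a cyclin partner of CDK1, stood at 176, 194 and 204 CPM in knockouts and at 97.6, 119 and 41.2 CPM in controls. In both genes control 3 was the lowest library, and their log2 fold changes were 0.93 ± 0.27 and 1.16 ± 0.39 (SE), without passing in edgeR (adjusted p 0.0876 and 0.118). DESeq2 called both (adjusted p 0.0232 and 0.0491), as did edgeR without control 3 (0.0304 and 0.0291). Smaller differences without overlap were seen in the mitotic kinase genes. Plk1 had 97.4 to 105 CPM in knockouts and 61.3 to 80.7 CPM in controls, Aurka had 90.4 ± 12.5 and 58.0 ± 9.21 CPM, and Aurkb had 179 ± 27.0 and 118 ± 39.7 CPM (SD, n = 3 each).

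Mki67 and Top2a, both used as markers of proliferation, did not separate the groups, unlike Pcna. Mki67, which encodes the Ki-67 protein of dividing cells, stood at 862, 775 and 892 CPM in knockouts 1 to 3 and at 814, 1363 and 1579 CPM in controls 1 to 3. Controls 2 and 3 were above all knockouts and control 1 lay among them, and the log2 fold change of -0.57 ± 0.29 (SE) missed the threshold (edgeR adjusted p 0.236). Top2a, the topoisomerase that untangles sister chromatids, stood at 742, 683 and 787 CPM in knockouts and at 623, 927 and 721 CPM in controls, with a log2 fold change of -0.04 ± 0.22 (SE). Its controls spanned the knockouts. Ccna2 (cyclin A2), Foxm1, the transcription factor of the mitotic wave, and the checkpoint kinase gene Bub1 had log2 fold changes of -0.0043, -0.14 and 0.090, each smaller than its standard error, and overlapped. So did the spindle gene Tpx2 (0.11 ± 0.21, SE) and the kinetochore genes Cenpe and Cenpf (-0.18 ± 0.15 and -0.22 ± 0.29). Ccnb1, Cdk1, Bub1b and the spindle motor gene Kif11 had log2 fold changes between 0.36 and 0.59 with overlap.

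Ratios within a library showed the same divergence between mitotic genes. The ratio of Ube2c to Cenpf reads was 1.13, 1.54 and 1.36 in knockouts 1 to 3 and 0.696, 0.629 and 0.341 in controls 1 to 3. The ratio of Birc5 to Mki67 reads was 0.235, 0.275 and 0.264 in knockouts and 0.162, 0.0997 and 0.0473 in controls. The ratio of Ccnb2 to Ccnb1 reads was 0.960, 0.952 and 0.995 in knockouts and 0.790, 0.827 and 0.221 in controls. None of these overlapped between the groups, and control 3 had the lowest ratio in each. The pairs were chosen after their values were seen, and so carry no test.

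**Figure D3:**
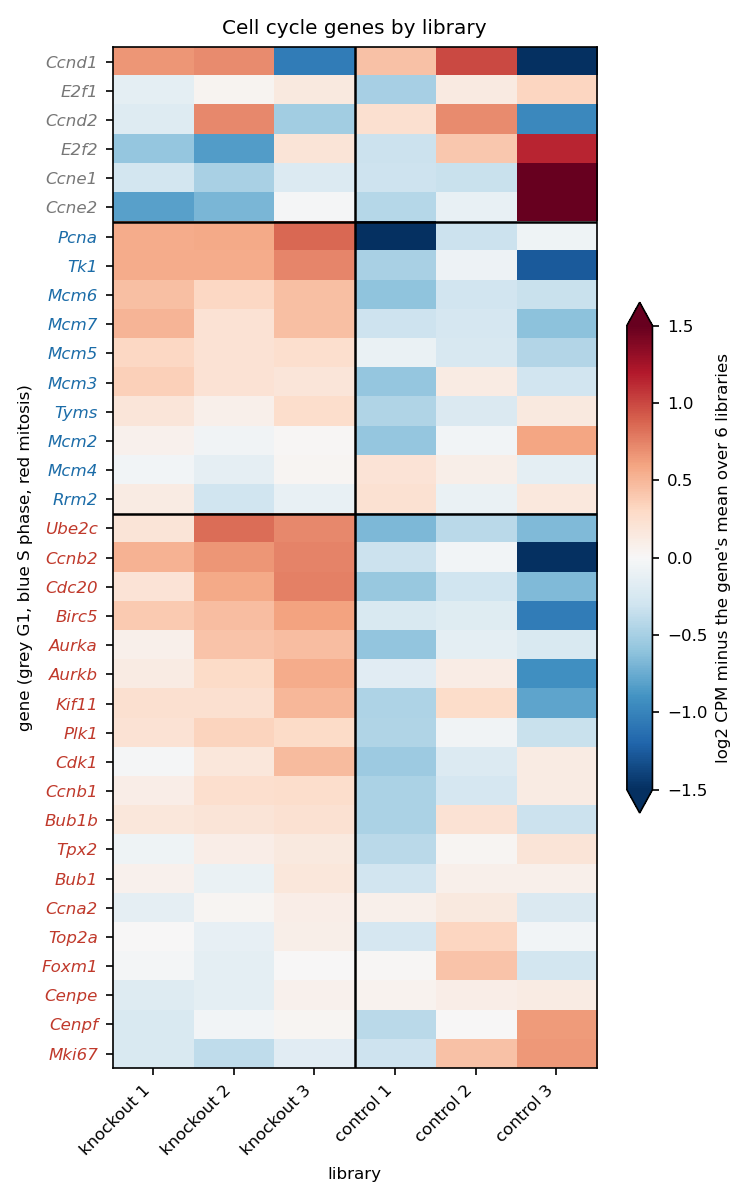
Each gene's log2 CPM minus its own mean over the 6 libraries, with knockouts in the left 3 columns and controls in the right 3, and genes grouped by role. Colours are limited to 1.5 in either direction. The knockouts resemble each other, and control 3 has the strongest colours, high in Ccne1, Ccne2 and E2f2 and low in Ccnb2, Tk1 and Ccnd1.

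The regulators of G1 and of S phase entry varied most between the controls, and here control 3 was high. Of the 6 genes edgeR called none (0 with unadjusted p under 0.05), DESeq2 and limma voom likewise, and every one overlapped between the groups. Ccne2, one of the cyclin E genes, stood at 20.7, 22.5 and 35.8 CPM in knockouts 1 to 3 and at 27.0, 33.5 and 151 CPM in controls 1 to 3. Ccne1 stood at 17.1, 14.8 and 17.9 CPM in knockouts and at 16.7, 16.5 and 63.2 CPM in controls. Both were similar in 5 libraries and several times higher in control 3. Ccne2 had a log2 fold change of -1.42 ± 0.72 SE (edgeR adjusted p 0.232), and without control 3 it was -0.20. Ccne1 had one of -0.95 ± 0.58 SE (edgeR adjusted p 0.309), and without control 3 it was 0.0022. E2f2, an activating E2F factor, stood at 39.4, 32.8 and 67.2 CPM in knockouts and at 46.9, 77.4 and 129 CPM in controls. E2f1 had 100.2 ± 10.3 CPM in knockouts and 100.6 ± 27.4 CPM in controls (SD, n = 3 each). In Ccne2 17.4% of the exon bases overlap Ints8 on the opposite strand, which itself stood at 35.3 CPM in control 3 and between 22.5 and 42.0 CPM elsewhere.

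D cyclins had the opposite arrangement among the controls. Ccnd1 (cyclin D1) stood at 26.8, 27.6 and 8.09 CPM in knockouts 1 to 3 and at 22.8, 33.7 and 4.98 CPM in controls 1 to 3. Control 3 was its lowest library and knockout 3 the next, and the log2 fold change was 0.02 ± 0.77 (SE). Ccnd2 stood at 7.46, 14.1 and 5.93 CPM in knockouts and at 10.1, 14.1 and 4.33 CPM in controls, again lowest in control 3. In Ccnd1 23.4% of the exon bases overlap LTO1 on the opposite strand, so reads of the pair could be mixed if strand was not used. LTO1 stood at 24.7 to 27.6 CPM in knockouts and at 15.3 to 18.6 CPM in controls. In knockout 3 and control 3 it was 24.7 and 15.3 CPM, above Ccnd1.

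Scores over the replication and mitosis groups put the 3 knockouts above the 3 controls in both, with no clear difference between them. A score is the mean of log2 CPM over the genes of a group, each centred on its mean over the 6 libraries, and it carries no test because the members were chosen with results known. The S phase score of the 10 genes was 0.31, 0.17 and 0.31 in knockouts 1 to 3 and -0.43, -0.13 and -0.23 in controls 1 to 3. The mitosis score of the 19 genes was 0.075, 0.19 and 0.32 in knockouts and -0.34, 0.029 and -0.27 in controls. Control 1 was lowest and control 2 highest of the controls in both. The mean S phase score was higher in knockouts by 0.53, and the mean mitosis score by 0.39. The S phase minus the mitosis score was 0.23, -0.024 and -0.0013 in knockouts and -0.088, -0.16 and 0.045 in controls, with means of 0.068 ± 0.14 and -0.068 ± 0.11 (SD, n = 3 each). The difference of 0.14 was about the SD of the knockouts, the groups overlapped, and it was -0.19 when Ccne1, Ccne2, E2f1 and E2f2 were added to the S phase genes and -0.0097 when Mki67, Top2a, Ccna2 and Foxm1 were taken out of the mitosis genes. The score of the 6 G1 genes was lower on average in knockouts, at -0.22, -0.090 and -0.24, against -0.15, 0.30 and 0.40 in controls, but the groups overlapped. Within it Ccnd1, Ccnd2 and E2f1 had log2 fold changes near 0 (0.022, -0.050 and -0.0057). Those of Ccne1 and Ccne2 were 0.0022 and -0.20 without control 3. E2f2 had -0.86, and between -1.21 and -0.42 with 1 library left out.

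**Figure D4:**
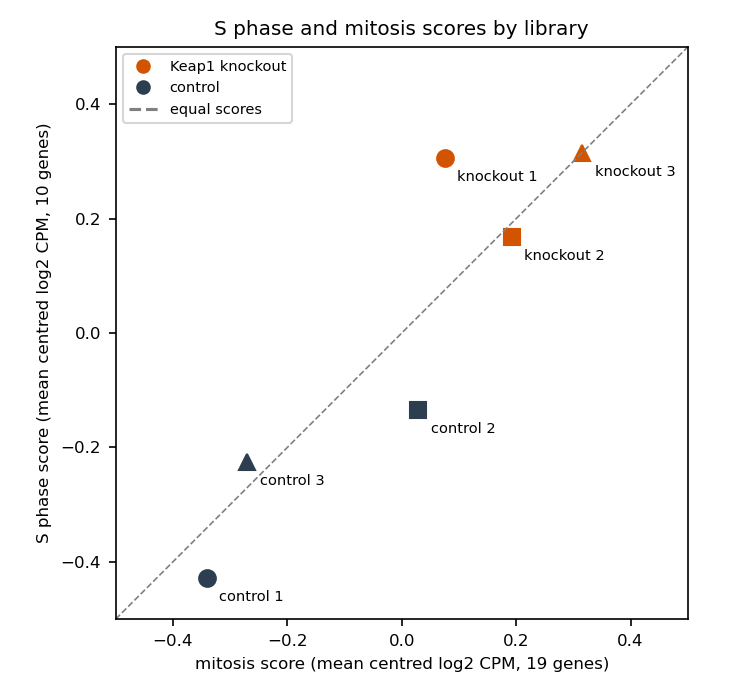
S phase score against mitosis score in each library, on log2 CPM centred per gene, with knockouts in orange and controls in dark blue. The dashed line marks equal scores. The knockouts have S phase scores of 0.17 or more and all controls scores below 0, while distances from the line overlap between the groups.

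As over all genes tested, the knockouts were more alike than the controls in most of these genes. The standard deviation of log2 CPM was larger among controls than among knockouts in 31 of 35 genes (88.6%), near the 83.5% of all genes tested. Its median over the members was 0.13 among knockouts and 0.35 among controls, against 0.22 and 0.58 over all genes. Among the controls, control 1 was the lowest in 20 members (57.1%, against 32.1% of all genes), control 3 in 13 and control 2 in 2. Of all 6 libraries, control 3 was the highest in 9 members (25.7%, against 29.7% of all genes), among them Ccne1, Ccne2, E2f2, Mcm2, Mki67, Cenpe and Cenpf, and the lowest in 13 (37.1%, against 31.4% of all genes), among them Tk1, Mcm7, Ccnb2, Birc5, Aurkb and Ccnd1. The 35 genes together took 0.753% to 0.831% of counted reads in the knockouts and 0.562%, 0.768% and 0.788% in controls 1 to 3. Control 1, the lowest, is the library with squamous and basal markers, and control 3 the one with neuroendocrine markers.

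Other genes of the same pathways gave the setting. For each list from here on, the shares of all genes tested are the background. EdgeR called 2.42% of all genes higher and 1.89% lower, limma voom 3.71% and 2.25%, and DESeq2 11.5% and 14.4%. In edgeR 30.7% had an unadjusted p below 0.05 in either direction. Every knockout lay above every control in 21.5% of all genes and below in 19.1%. Of 28 further genes of replication origins and forks, 23 had positive log2 fold changes (median 0.29), 15 were higher and 2 lower in every knockout than in every control, and edgeR called 1 higher and none lower, limma voom 2 higher and DESeq2 8 higher. The edgeR call was Gmnn, or geminin, which blocks a repeat licensing of origins within a cycle. Gmnn rose to 97.8, 112 and 189 CPM in knockouts 1 to 3, against 44.2, 42.9 and 36.9 CPM in controls 1 to 3 (log2 fold change 1.68 ± 0.29 SE, edgeR adjusted p 0.0414.) Gins1, a subunit of the helicase complex, and Cdc6, which loads the MCM ring, came next with 57.6 ± 3.33 and 131 ± 14.1 CPM in knockouts and 26.5 ± 6.06 and 69.8 ± 14.4 CPM in controls, at adjusted p of 0.0519 and 0.0614. Of 14 genes of nucleotide supply edgeR called 1 higher and none lower, limma voom 2 higher and DESeq2 4 higher, with a median of 0.19. Cad, which encodes the enzyme that opens pyrimidine synthesis, rose to 303, 219 and 243 CPM in knockouts, against 38.9, 90.7 and 59.4 CPM in controls (log2 fold change 2.02 ± 0.35 SE, edgeR adjusted p 0.0417). Dck, the gene of deoxycytidine kinase, was lower in every knockout, at 63.3 to 73.4 CPM against 96.1 to 193 CPM in controls, without passing in edgeR (adjusted p 0.132).

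Of 32 further genes of the kinetochore, spindle and cytokinesis, 21 had positive log2 fold changes (median 0.24). EdgeR called none (5 with unadjusted p under 0.05), limma voom none and DESeq2 4 higher and 1 lower. DESeq2 called 11.5% of all genes higher and 14.4% lower, so its 4 higher of 32 are near the background. Nek2, a centrosomal kinase gene, and Kif2c, which encodes a microtubule-depolymerising kinesin, had the smallest p, with 178 ± 15.2 and 126 ± 24.1 CPM in knockouts and 103 ± 13.5 and 68.5 ± 10.7 CPM in controls (SD, n = 3 each), at adjusted p of 0.0595 and 0.0697. Knl1, a kinetochore scaffold gene, was lower in every knockout, at 67.3 to 73.8 CPM against 98.8 to 159 CPM in controls. Of 13 checkpoint and repair genes edgeR called none (2 with unadjusted p under 0.05), limma voom none and DESeq2 1 higher, with a median of 0.093. Pkmyt1, which encodes a kinase that restrains CDK1, had 133 ± 14.8 CPM in knockouts and 79.7 ± 14.5 CPM in controls (SD, n = 3 each).

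A gene of the MuvB core and a pocket protein gene differed past the threshold. Of 18 further genes of G1 cyclins, CDKs, E2F factors and MuvB tested, edgeR called 1 higher and none lower, limma voom 1 higher, and DESeq2 1 higher and 1 lower, with a median of 0.0067. Lin37, a subunit of the MuvB core, rose to 34.2, 36.3 and 39.8 CPM in knockouts 1 to 3, against 16.7, 14.5 and 13.9 CPM in controls 1 to 3 (log2 fold change 1.29 ± 0.21 SE, edgeR adjusted p 0.0390). Of 10 CDK inhibitors and pocket proteins edgeR called 1 lower and none higher, with a median of -0.35. Rbl2 (p130), the main pocket protein of DREAM, fell to 10.4, 11.8 and 13.4 CPM in knockouts, against 40.6, 24.7 and 55.6 CPM in controls (log2 fold change -1.76 ± 0.35 SE, edgeR adjusted p 0.0494). Rb1 also lay lower in every knockout, at 57.5, 59.2 and 75.0 CPM, against 137, 89.5 and 260 CPM in controls, without passing in edgeR (adjusted p 0.0969). Whether either gene carries an engineered deletion in these tumours is not stated in the labels. In every knockout Cdkn2a was higher (574 ± 69.6 CPM, against 244 ± 135 CPM in controls), and Cdkn2c (113 ± 11.7 against 180 ± 28.1 CPM) and Cdkn1a (205 ± 6.94 against 282 ± 55.2 CPM) were lower, none of these 3 CDK inhibitor genes passing in edgeR. Of the 10 genes 1 was higher and 4 were lower in every knockout than in every control, against 21.5% and 19.1% of all genes. The groups overlapped in Cdkn1b, Cdkn1c, Cdkn2b, Cdkn2d and Rbl1, with log2 fold changes of 0.48, -0.24, 0.041, -0.083 and -0.74. DESeq2 called 3 genes of this list lower and none higher (Rbl2, Rb1 and Cdkn2c), against 14.4% and 11.5% of all genes. Limma voom called none.

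**Figure D5:**
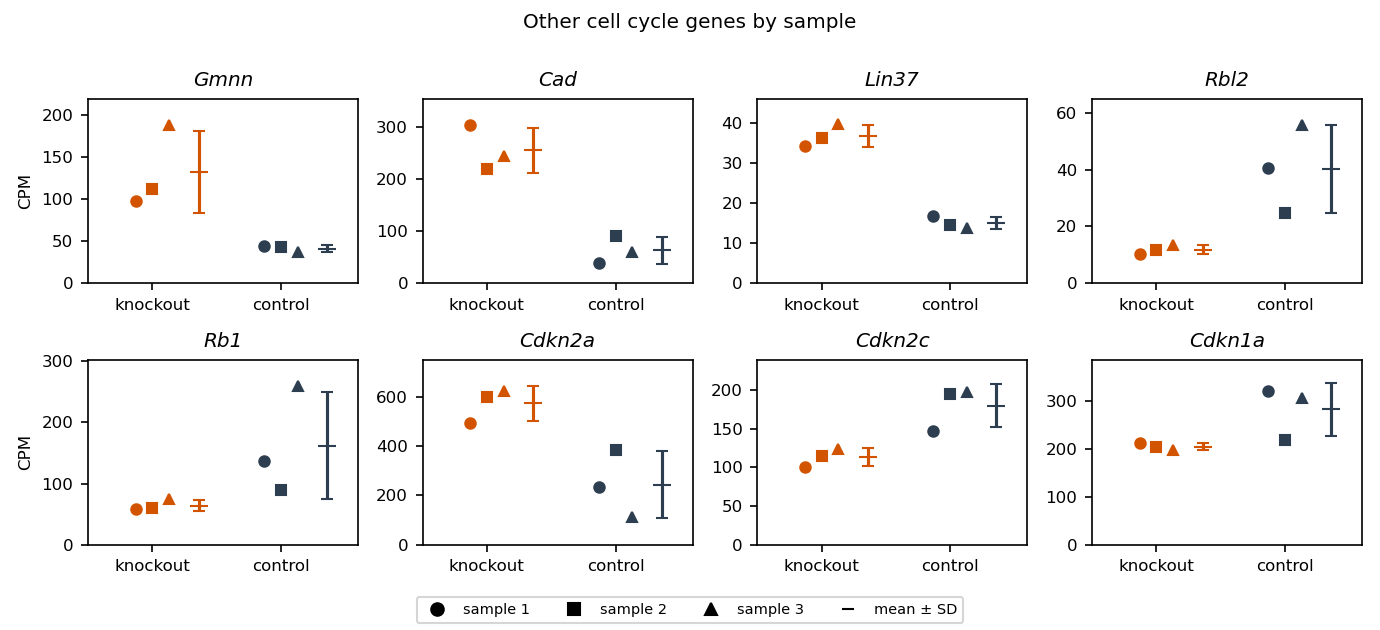
Levels in CPM of 8 further cell cycle genes in each sample, knockouts left of controls, with the mean ± SD of 3 samples beside the points. Gmnn, Cad, Lin37 and Cdkn2a are higher and Rbl2, Rb1, Cdkn2c and Cdkn1a lower in every knockout, and Gmnn, Cad, Lin37 and Rbl2 passed an adjusted p of 0.05. Other CDK inhibitor genes, not drawn, overlapped between the groups.

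The edgeR calls of these genes were near the threshold. In the edgeR test Gmnn, Lin37, Rbl2 and Cad were not called without knockout 1, 2 or 3 (adjusted p from 0.136 to 0.236). With a knockout left out at most 2 of all genes tested were called, so this loss was not particular to them. Gmnn and Rbl2 were not called without control 1 (0.0612 and 0.0706), and Gmnn and Lin37 were not without control 2 (0.0720 and 0.0660). Without the filter on low counts Rbl2 and Lin37 were not called (0.0692 and 0.0627), and limma voom did not call Rbl2 (0.0598). With a spread per genotype limma voom did not call Gmnn and Lin37 (0.102 and 0.0503). DESeq2 called all 4, with adjusted p of 8.5e-05 or less.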

How the data were processed

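The deposited counts are whole reads for each Ensembl identifier in 3 Keap1 knockout and 3 control tumour samples, with no scaling, and each column name is the description of 1 sample. The submitters' processing notes name STAR and mm39. Which program and annotation assigned reads to genes, and whether strand was used, is not given in the sources used here, which leaves genes with overlaps or pseudogene copies uncertain. A second deposited table, the authors' comparison with DESeq2, gives the mean normalized signal, log2 fold changes, a Wald score and p-values, per the file headers. Its log2 fold changes had the sign of those computed here in 35 of 35 members, positive meaning higher in the knockout.

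Genes were filtered with filterByExpr, scaled by TMM and tested with edgeR 4.0.16 (R 4.3.3; robust quasi-likelihood fit, two-sided, genotype as the only term, 4 residual degrees of freedom before moderation), with Benjamini-Hochberg adjustment over 17901 genes and a threshold of 0.05. Levels are CPM on TMM-scaled totals, with the SD over 3 samples. For scores, 2 was the prior count of log2 CPM. Every pair of libraries of the same group differed beyond sampling noise. Exon overlaps came from GENCODE M21 on GRCm38. Symbols were paired with 52073 of 56980 identifiers, and of the genes listed Lin54 was not analysed here. Alternatives were RLE and upper-quartile scaling, 2 other filters, DESeq2 1.42.0, limma 3.58.1 voom with a shared spread or 1 for each genotype, each sample left out, and the sample number as a block.

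The members, gene lists and rule for named genes were chosen with earlier results of these data known. All members were described. In each further list at most 4 genes past the threshold were named, or the 2 of smallest p if there were none, except for an item that is not reported here. Gins1, Cdc6, Dck, Knl1, Rb1, Rbl1, Cdkn2a, Cdkn2c, Cdkn1a and the other CDK inhibitor genes named were added after their values were seen. So were Xist and the cell type markers named, and values by library of Tk1, Birc5, Ccnb2, Ccne1, Ccnd2 and Mcm2.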

Additional observations from a re-analysis of the deposited data

How the results depend on the processing

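The number of members called higher, 1 in the edgeR test, was 0 without the filter on low counts and 0 with the sample number as a replicate block (11 at an unadjusted p below 0.05 in both), 10 by DESeq2 and 3 by limma voom, and it ran from 0 to 8 when 1 library was left out. Limma voom with a spread per genotype called Mcm6 in place of Ube2c. No alternative called a member lower. With the replicate block Gmnn, Cad, Rbl2 and Lin37 were not called (adjusted p 0.138 to 0.140). Over all genes the count, 771 by edgeR, was 465 without the filter, 4642 by DESeq2 and 0 with the replicate block (4026 at an unadjusted p below 0.05), and 0 to 3209 without 1 library. With 1 library left out the median log2 fold change ran from -0.68 to -0.30 over the G1 genes and from 0.46 to 0.62 over the replication genes. The median over the mitosis genes lay between 0.25 and 0.47 over all alternatives. The S phase minus mitosis difference turned to -0.19 and -0.0097 under the other memberships named above, and lay between 0.056 and 0.19 without 1 library.

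Of 35 members, 24 kept the sign of their log2 fold change under all 14 alternatives and 11 did not, all of them uncalled in every fit. Ccnd1 was -0.0017 with RLE scaling and -0.0017 by DESeq2. E2f1 was 0.0038 and Ccna2 0.0055 with upper-quartile scaling. Without the filter E2f1 was 0.036, Top2a 0.00032 and Ccna2 0.034. By limma voom Ccnd2 was 0.0042, E2f1 0.029, Mcm2 0.025 and Ccna2 0.00097, with a spread per genotype 0.0039, 0.028, 0.025 and 0.0010 in the same order, and with the replicate block 0.0067, 0.028, 0.024 and 0.00070. Leaving out 1 library gave ranges of -0.44 to 0.60 for Ccnd1, -0.49 to 0.37 for Ccnd2, -1.27 to 0.0022 for Ccne1, -0.21 to 0.17 for E2f1, -0.29 to 0.30 for Mcm2, -0.15 to 0.16 for Top2a, -0.10 to 0.089 for Ccna2, -0.019 to 0.18 for Bub1, -0.29 to 0.094 for Foxm1, -0.43 to 0.11 for Cenpf and -0.044 to 0.24 for Tpx2. The cause was not tested. The median log2 fold change of all genes was -0.11 with RLE and -0.075 with upper-quartile scaling, against -0.085. Deviations of same-numbered samples from their group means correlated at 0.018, 0.00012 and 0.051, so the numbers were not taken as pairs.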
